A study of Mus musculus with 2 samples.

Results

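Foxc1, Foxc2, Foxd1, Foxp2, Zic1, Tbx18, Tbx15, Twist1 and Prrx1 encode transcription factors of the meningeal fibroblast lineage. They were followed through the cell types of the mouse dorsal meninges, the membranes between skull and brain. The 9 genes were taken by their symbols from the 32285 genes of the count matrices, and all 9 were found. The meninges came from male C57BL/6 mice (C57BL/6J in the methods) of 10 weeks (a further label gives 10-12 weeks), collected 1 week after a mild traumatic brain injury (TBI) through the closed skull or a Sham procedure. No transgene, deletion or drug distinguished the groups. The tissue was peeled from the skull cap away from the site of impact, and living cells were sorted for droplet-based single-cell RNA sequencing. Each group was a single library pooled from 5 mice. No value below therefore has a replicate error or a test, and the 95% intervals cover the counting of molecules only.

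Fibroblasts of the meninges lay down the collagen-rich dura, the arachnoid barrier and the pia. In the embryo they arise from neural crest and mesoderm, and factors of the forkhead, ZIC, T-box, Twist and paired-related homeobox families mark and build this lineage. Foxc1, a forkhead factor, is needed for the meninges to form over the forebrain, and its close relative Foxc2 acts in mesenchyme and in lymphatic vessels. Prrx1 and Twist1 are broad factors of connective tissue and of the bones of the skull. Mural cells, the pericytes and smooth muscle of vessels, are neighbours of these fibroblasts and share part of their program.

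After filters on genes, mitochondrial and hemoglobin counts, 2043 of 2699 Sham barcodes and 3773 of 4349 TBI barcodes remained, with 7866611 and 13940740 unique molecular identifiers (UMIs, 1 for each captured transcript). Cells were clustered without the 9 genes and classed by markers. The fibroblast-like class held 121 Sham cells (5.92% of cells, 363661 UMIs) and 762 TBI cells (20.2%, 2259060 UMIs), of similar median depth (2149 and 2257 UMIs). All 10 fibroblast markers were found in it in both libraries and summed to 26610 and 26002 CPM (counts per 1000000 UMIs of the class). Markers of other cells were lower there, endothelial markers at 553 and 283 CPM, mural at 473 and 132 CPM, macrophage at 192 and 931 CPM and choroid plexus at 250 and 1153 CPM in Sham and TBI. Red-cell markers stood at 1064 and 302 CPM, and the part of any of these in the values below was not tested. The libraries shared 20 barcodes, of which 2 were in fibroblast-like cells. The class joined 2 clusters. The larger was led by Mfap4, Dcn and Fmod. The other, led by Snhg11, Mir100hg and Foxp2, carried 10 of 10 fibroblast markers but was named by a rule added after the data were seen, so that values are also given for each cluster alone.

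All 9 genes were at least 4-fold higher in fibroblast-like cells than in all other cells in both libraries. Of 14782 genes with at least 20 UMIs over all filtered cells, 12.1% passed the same limit. A gene scarce elsewhere could enter this count through its fibroblast-like UMIs alone. Twist1 could with 96 of 103 UMIs, and Tbx18 with 89 of 107. In the fibroblast-like cells the 9 genes together gave 720 UMIs in Sham and 4537 UMIs in TBI, a summed level of 1980 CPM (95% interval 1838 to 2130) in Sham and 2008 CPM (1950 to 2068) in TBI. The summed level in all other cells was 14.5 CPM in Sham and 47.7 CPM in TBI. Each captured transcript was counted once whatever its length, so that CPM compare numbers of captured transcripts between genes without a length term.

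**Figure D1:**
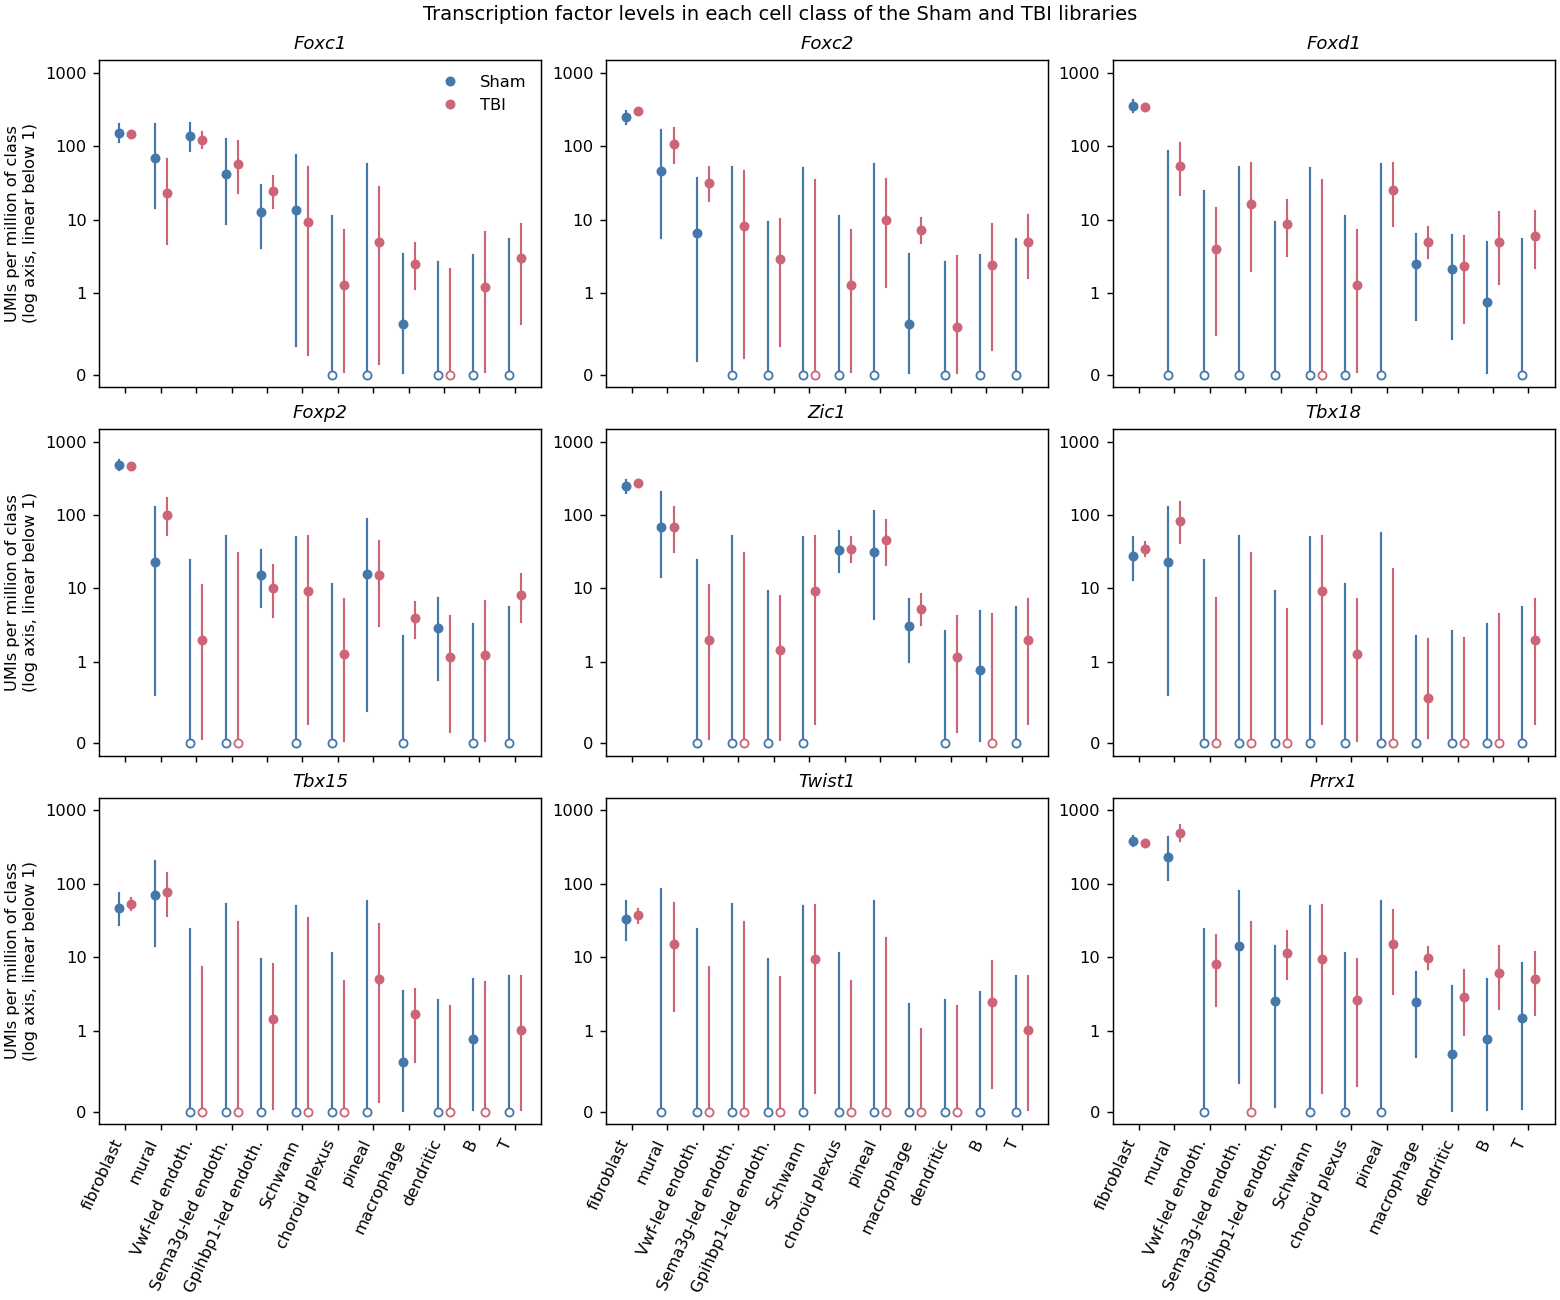
Level of each of the 9 genes (CPM, log axis that is linear below 1) in the marker-defined cell classes of the Sham (blue) and TBI (red) library, with exact 95% Poisson intervals as bars and open circles for 0 UMIs. Fibroblast-like cells are at the top for most genes, while Foxc1 reaches 138 and 123 CPM in the Vwf-led endothelial cluster and Prrx1 233 and 490 CPM in mural-like cells.

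The order of the 9 levels in fibroblast-like cells was the same in both libraries. Foxp2 stood highest, followed by Prrx1, Foxd1, Foxc2, Zic1, Foxc1, Tbx15, Twist1 and Tbx18. Few neighbours in this order stood apart beyond counting error. In Sham only Foxc1 and Tbx15 had intervals that did not overlap. In TBI the intervals were apart between Foxp2 and Prrx1, between Zic1 and Foxc1, and between Foxc1 and Tbx15. The last 3 genes thus formed a lower tier in both libraries, at 27.5 to 53.1 CPM.

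For 3 of the genes, which differed in the cells that held them outside the fibroblasts, the RefSeq sequence just before the annotated start is printed (GRCm38.p6, 5′ to 3′ on the strand of the gene). Foxc1 was also found in endothelial-like cells, Prrx1 in mural-like cells, and Foxd1 mainly in fibroblast-like cells. The windows lie at chr13:31806396-31806632 (Foxc1, plus strand), chr13:98353995-98354241 (Foxd1, plus strand) and chr1:163313711-163313900 (Prrx1, minus strand). Capitals mark matches to an E-box (CANNTG, the letters bound by Twist-type factors), a forkhead core (GTAAACA) or a paired-type homeobox core (TAATTA), searched on both strands.
Foxc1: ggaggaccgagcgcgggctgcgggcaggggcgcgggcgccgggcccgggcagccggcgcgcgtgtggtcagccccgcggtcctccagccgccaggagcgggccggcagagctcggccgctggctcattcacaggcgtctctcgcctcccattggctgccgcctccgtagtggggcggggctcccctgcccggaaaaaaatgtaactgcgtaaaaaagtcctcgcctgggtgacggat
Foxd1: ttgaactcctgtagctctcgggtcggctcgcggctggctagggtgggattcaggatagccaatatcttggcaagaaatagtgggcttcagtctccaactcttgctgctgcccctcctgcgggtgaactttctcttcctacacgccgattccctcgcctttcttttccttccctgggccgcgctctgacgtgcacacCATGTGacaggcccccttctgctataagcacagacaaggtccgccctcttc
Prrx1: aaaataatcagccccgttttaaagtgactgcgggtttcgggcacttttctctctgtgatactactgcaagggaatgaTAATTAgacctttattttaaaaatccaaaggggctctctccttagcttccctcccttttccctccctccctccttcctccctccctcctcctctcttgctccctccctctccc
The Foxd1 window held 1 E-box and the Prrx1 window 1 homeobox core, and the Foxc1 window held none of the 3. Among the upstream windows of 32851 RefSeq starts, 66.2% held an E-box, 4.84% the homeobox core and 3.17% the forkhead core. Windows were also found for Zic1 and Tbx18, with 1 E-box each, and for Twist1, with none of the 3. Foxc2, Foxp2 and Tbx15 were not in the table of starts. These matches describe letters and not bound sites.

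Foxd1 (ENSMUSG00000078302; GRCm38 chromosome 13, 98354242 to 98359305, plus strand, a single exon) encodes a forkhead factor known from the stroma of the embryonic kidney. It was found at 357 CPM (299 to 424) in Sham fibroblast-like cells and at 343 CPM (319 to 368) in TBI fibroblast-like cells. The 2 libraries overlapped. All other cells together held 8 UMIs against 130 in the fibroblast-like cells of Sham, and 57 against 775 in TBI. The level in fibroblast-like cells was thus 317-fold that of all other cells in Sham and 69.7-fold in TBI. Of the Foxd1 UMIs in the filtered cells of both libraries, 93.3% came from fibroblast-like cells.

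Foxp2 (ENSMUSG00000029563; chromosome 6, 14901349 to 15441977, plus strand, 27 exon blocks) encodes a forkhead factor best known for its role in neurons of speech and song circuits. It was the most abundant of the 9 genes, at 478 CPM (410 to 555) in Sham and 465 CPM (438 to 494) in TBI fibroblast-like cells. In the other cells 13 UMIs were counted in Sham and 58 in TBI, for folds of 267 and 92.9. Fibroblast-like cells gave 94.5% of its UMIs in the filtered cells of both libraries. The short gene model Gm25470 overlaps Foxp2 by 111 bases on the same strand, and its part in the count was not tested.

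Foxc2 (ENSMUSG00000046714; chromosome 8, 121116171 to 121118895, plus strand, a single exon) was found at 250 CPM (201 to 307) in Sham and at 303 CPM (281 to 326) in TBI fibroblast-like cells. It was 343-fold and 47.5-fold higher there than in the other cells, which held 5 UMIs in Sham and 74 in TBI. The gene lies inside the longer gene model Gm20388 on the same strand, so that reads could be split between the 2 models or left out by the counting. Its level is therefore uncertain.

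Foxc1 (ENSMUSG00000050295; chromosome 13, 31806633 to 31812476, plus strand, a single exon) was at 154 CPM (116 to 200) in Sham and 147 CPM (132 to 164) in TBI fibroblast-like cells, and again the libraries overlapped. Its fold over all other cells was lower than that of Foxc2 in both libraries, at 33.8 in Sham and 16.1 in TBI. Fibroblast-like cells gave 73.5% of its UMIs in filtered cells, the lowest share among the 9 genes, and endothelial-like cells gave 21.8%.

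This second site of Foxc1 was concentrated in the endothelial cluster led by Vwf, the gene of von Willebrand factor, which marks large vessels and veins. There Foxc1 stood at 138 CPM (85.6 to 211) in Sham, with a UMI in 14 of 74 cells, and at 123 CPM (94.4 to 158) in TBI, with a UMI in 48 of 193 cells. The difference from fibroblast-like cells of the same library was -0.13 (-0.95 to 0.59) on the log2 scale in Sham and -0.25 (-0.67 to 0.14) in TBI, so that the levels were not apart beyond counting error. The endothelial cluster led by Sema3g had 42.6 and 57.8 CPM of Foxc1, and that led by Gpihbp1, a gene of capillaries, 12.7 and 24.4 CPM.

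The other members were scarcer in the Vwf-led cells. Foxc2 had the most UMIs of them, 1 in Sham and 16 in TBI. Its TBI level was 31.8 CPM (18.2 to 51.6), with a UMI in 13 of 193 cells. Foxd1 had 0 UMIs there in Sham, which allows up to 24.3 CPM, and 2 in TBI, and Foxp2 had 0 and 1. Of the 108 UMIs of the 9 genes in that cluster 76.9% were Foxc1, against 7.38% in fibroblast-like cells. Fibroblast markers were also present in these cells, 5 of 10 in Sham and 9 of 10 in TBI, at a summed 283 and 944 CPM.

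Zic1 (ENSMUSG00000032368; chromosome 9, 91358058 to 91365810, minus strand) encodes a zinc-finger factor of neural and meningeal development. It was at 247 CPM (199 to 304) in Sham and 270 CPM (249 to 292) in TBI fibroblast-like cells, 79.5-fold and 41.8-fold above the other cells. Outside them Zic1 was found in choroid plexus-like cells, the epithelium that makes cerebrospinal fluid, at 33.8 CPM (11 UMIs in 10 of 59 cells) in Sham and 34.9 CPM (27 UMIs in 21 of 133 cells) in TBI. Pineal-like cells had 31.3 CPM in Sham from 2 UMIs and 45.1 CPM in TBI from 9 UMIs. Zic1 and its divergent partner Zic4 overlap by 3398 bases on opposite strands. Zic4 was at 234 and 243 CPM in fibroblast-like cells, and reads in the shared stretch can be assigned only by strand.

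The T-box genes formed the lower tier with Twist1. Tbx15 (ENSMUSG00000027868; chromosome 3, 99240381 to 99354259, plus strand), a factor of skeletal and dermal mesenchyme, was at 46.7 CPM (27.2 to 74.8) in Sham and 53.1 CPM (44.0 to 63.5) in TBI fibroblast-like cells. Its folds over all other cells together were 65.6 and 29.0, while mural-like cells alone stood at 69.9 and 76.6 CPM. Tbx18 (ENSMUSG00000032419; chromosome 9, 87702800 to 87731260, minus strand), known from pericytes and from the mesenchyme of heart and ureter, was at 27.5 CPM (13.2 to 50.6) and 35.0 CPM (27.7 to 43.6). The Sham values for Tbx18 rest on 10 UMIs in fibroblast-like cells and 1 elsewhere, a log2 difference of 7.17 with a counting interval of 4.88 to 13.13. In TBI, with 79 and 17 UMIs, the fold was 23.5.

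Twist1 (ENSMUSG00000035799; chromosome 12, 33957671 to 33959829, plus strand), a basic helix-loop-helix factor of mesenchyme and of the sutures of the skull, was at 33.0 CPM (17.1 to 57.6) in Sham and 37.2 CPM (29.7 to 46.0) in TBI fibroblast-like cells. No UMI was counted in any other Sham cell, against 12 in the fibroblast-like cells. Set against a floor of 3 counts over those cells, the level in fibroblast-like cells was at least 82.5-fold higher. In TBI the fold was 58.3, from 84 and 7 UMIs.

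Prrx1 (ENSMUSG00000026586; chromosome 1, 163245119 to 163313710, minus strand), a homeobox factor of limb and craniofacial connective tissue, was at 385 CPM (324 to 454) in Sham and 355 CPM (331 to 380) in TBI fibroblast-like cells. The libraries overlapped. It was 141-fold and 29.1-fold above all other cells, and 85.3% of its UMIs in filtered cells came from fibroblast-like cells. Mural-like cells gave 6.70%, from 23 cells in Sham and 74 in TBI. The gene models Gm26523 and Gm37644 overlap Prrx1 on the same strand by 1831 and 2270 bases. Their part in its count was not tested.

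Mural-like cells also held Prrx1, the most abundant of the 9 genes there. It stood at 233 CPM (112 to 428) in Sham, from 10 UMIs in 8 cells, and at 490 CPM (377 to 626) in TBI, from 64 UMIs in 27 cells. Against fibroblast-like cells of the same library the log2 difference was -0.66 (-1.82 to 0.20) in Sham and 0.48 (0.07 to 0.83) in TBI. A single cell held 10 of the 64 UMIs. With the predicted doublets taken out, the level was 219 CPM in Sham and 519 CPM in TBI.

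Tbx18 and Tbx15 were also found in mural-like cells, as were Foxc2, Foxp2 and Zic1. Tbx18 stood at 84.2 CPM in TBI (11 UMIs), above the TBI fibroblast-like cells by 1.32 (0.21 to 2.19) on the log2 scale, and at 23.3 CPM in Sham from 1 UMI. Tbx15 was at 69.9 CPM in Sham (3 UMIs) and 76.6 CPM in TBI (10 UMIs). Its log2 differences from fibroblast-like cells were 0.76 (-1.83 to 2.37) in Sham and 0.59 (-0.57 to 1.46) in TBI. Foxc2 was at 46.6 CPM in Sham (2 UMIs) and 107 CPM in TBI (14 UMIs). Foxp2 was at 23.3 CPM (1 UMI) and 99.5 CPM (13 UMIs), and Zic1 at 69.9 CPM (3 UMIs) and 68.9 CPM (9 UMIs). The log2 differences from TBI fibroblast-like cells were -1.45 for Foxc2, -2.17 for Foxp2 and -1.89 for Zic1, with intervals below 0. Foxd1 was also lower, with no UMI in Sham mural-like cells, which allows up to 85.9 CPM, and 53.6 CPM in TBI. Foxc1 had 3 UMIs in each library, and Twist1 0 and 2. Prrx1 made up 47.4% of the 156 UMIs of the 9 genes in mural-like cells against 17.9% in fibroblast-like cells, and Foxd1 4.49% against 17.2%. Fibroblast markers summed to 3307 CPM in Sham and 5122 CPM in TBI mural-like cells, with 7 of 10 markers found in Sham and 10 of 10 in TBI. Over both libraries Col3a1 gave 1942 CPM, Igfbp5 853 CPM, Col1a2 709 CPM, Dcn 438 CPM and Col1a1 357 CPM of these, and Pdgfra had 1 UMI. From Sham to TBI mural-like cells Dcn went from 93.1 CPM (4 UMIs) to 551 CPM and Col1a1 from 210 to 406 CPM. Igfbp5 went from 536 to 957 CPM, Col1a2 from 536 to 766 CPM and Col3a1 from 1863 to 1968 CPM. How much of the mural values came from fibroblast RNA was not tested.

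The remaining classes held little. In B-like cells the 9 genes summed to 3.59 CPM in Sham and 18.4 CPM in TBI, in T-like cells to 1.50 and 33.1 CPM, and in macrophage-like cells to 9.89 and 36.1 CPM. The 10 fibroblast markers were also higher in these cells of the TBI library, at 24.2 and 237 CPM in B-like, 19.5 and 319 CPM in T-like and 205 and 376 CPM in macrophage-like cells of Sham and TBI. The folds of fibroblast-like over other cells were lower in TBI than in Sham for all 9 genes where Twist1 is taken at its bound, and the share of fibroblast-like cells also differed between the libraries. Which of these moved the folds cannot be told apart with 1 library per group.

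Most fibroblast-like cells held a UMI of at least 1 of the 9 genes. The share was 87.6% in Sham and 92.0% in TBI, with a median of 3 genes per cell in both. In B-like cells, which should lack the genes, it was 1.10% and 5.21%, and in T-like cells 0.55% and 8.43%, at median depths of 3087 and 2660 UMIs in B-like and 3422 and 3234 UMIs in T-like cells. The fibroblast-like shares thus stood far above this background in both libraries. Because a share moves with depth, cells were thinned to 1000 UMIs, which left out 34 Sham and 97 TBI fibroblast-like cells below that depth. The share was then 74.7% of 87 Sham and 84.4% of 665 TBI cells, against 0 of 326 (which allows up to 1.13%) and 1.88% in B-like and 0.69% and 3.43% in T-like cells.

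Foxp2 was found in the largest share of fibroblast-like cells, 54.5% in Sham and 60.0% in TBI (33.3% and 36.2% after thinning). Foxd1 was found in 52.1% and 52.4% (25.3% and 32.5%), and Prrx1 in 50.4% and 50.7% (25.3% and 28.3%). Zic1 was in 43.8% and 46.9% (24.1% and 24.1%) and Foxc2 in 35.5% and 46.1% (19.5% and 25.3%). These 5 genes were thus present in a large part of the cells, and Foxc1 in fewer, 27.3% and 31.8% (12.6% and 12.3%). Tbx15, Twist1 and Tbx18 were seen in 7.48% to 13.5% of cells before thinning. At least 3 of the 9 genes were found together in 55.4% of Sham and 63.5% of TBI fibroblast-like cells, and in 19.5% and 25.9% after thinning.

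**Figure D2:**
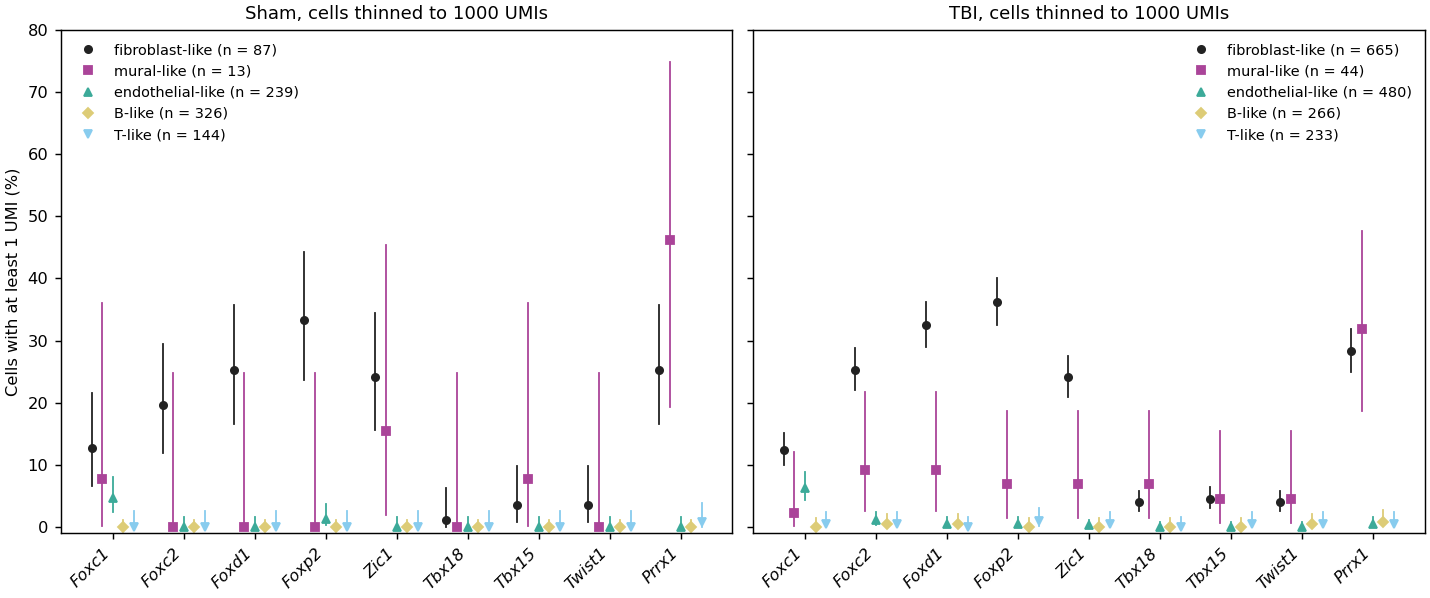
Percentage of cells with at least 1 UMI of each gene after thinning to 1000 UMIs, in 5 cell classes of the Sham (left) and TBI (right) library, with exact 95% binomial intervals as bars and the number of cells in the legend. Fibroblast-like cells reach 33.3% and 36.2% for Foxp2, B-like and T-like cells lie near 0, and mural-like cells have wide intervals from 13 Sham and 44 TBI cells.

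The next comparison asked whether the levels differed between injured and Sham meninges 1 week after the procedure. In fibroblast-like cells none of the 9 genes differed by 2-fold in either direction. Among the 10504 genes with at least 20 UMIs, 4.91% were at least 2-fold higher and 3.32% at least 2-fold lower in TBI. All 9 intervals held 0. The median log2 ratio of TBI over Sham was 0.12 for the 9 genes and -0.04 for all 10504.

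The most precise ratios were those of the abundant genes. Foxp2 had a log2 ratio of -0.04 (-0.27 to 0.20), Foxd1 of -0.06 (-0.33 to 0.22) and Prrx1 of -0.12 (-0.38 to 0.15). For these genes the counts leave room for a change of at most 0.38 on the log2 scale in either direction. Foxc1 had -0.08 (-0.48 to 0.37) and Zic1 0.12 (-0.20 to 0.46). Foxc2 had the ratio nearest to leaving 0, at 0.27 (-0.04 to 0.61). A single Sham cell held 15 of its 91 Sham UMIs, and the ratio without that cell was not tested. The lower tier was not resolved, with Tbx18 at 0.29 (-0.61 to 1.46), Tbx15 at 0.15 (-0.55 to 1.01) and Twist1 at 0.12 (-0.71 to 1.18).

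**Figure D3:**
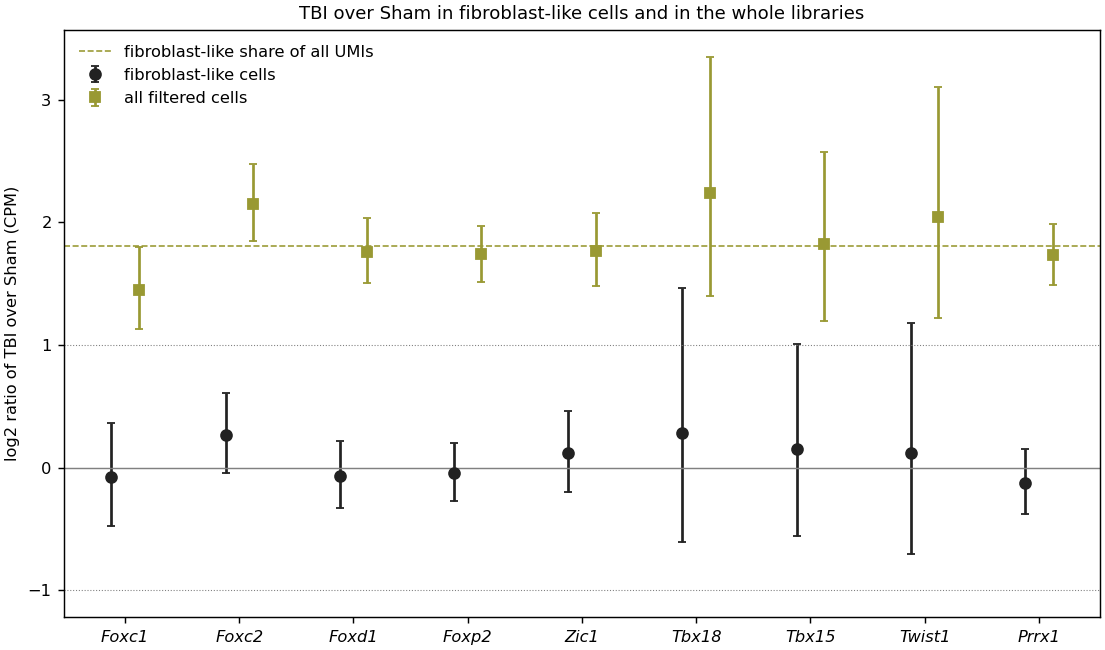
Log2 ratio of TBI over Sham (CPM) for each gene in fibroblast-like cells (black) and in all filtered cells (olive), with 95% counting intervals as bars, a dashed line at the log2 ratio of the fibroblast-like share of UMIs (1.81) and dotted lines at 2-fold. Every fibroblast-like interval crosses 0, and every whole-library ratio lies above 1.

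Over whole libraries all 9 genes were higher in TBI. The level of each was 2.73-fold (Foxc1) to 4.74-fold (Tbx18) higher in all filtered TBI cells than in all filtered Sham cells. Fibroblast-like cells gave 4.62% of UMIs in Sham and 16.2% in TBI, a log2 ratio of 1.81, within the log2 ratios of the 9 genes, which ran from 1.45 to 2.24. With 1 library per group, a difference of the tissue and a difference of dissociation or sorting cannot be told apart. In mural-like cells Prrx1 had a log2 ratio of TBI over Sham of 1.01 (0.10 to 2.20), resting on 10 Sham UMIs. A single TBI cell held 10 of the 64 TBI UMIs. Such a rise was not limited to that class. In all cells outside the fibroblast-like class together, 7 of the 9 genes had intervals above 0. In macrophage-like cells 3 of 9 did, in endothelial-like cells 2 and in mural-like cells 1. The part of fibroblast RNA in these ratios was not tested.

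Both fibroblast-like clusters held UMIs of all 9 genes in both libraries, at levels that differed for some. Foxd1 was at 251 CPM in the Mfap4-led and 634 CPM in the Snhg11-led cluster of Sham, and at 253 and 591 CPM in TBI. It was thus 2.52-fold higher in the Snhg11-led cluster in Sham and 2.33-fold in TBI, with log2 differences of 1.33 (0.82 to 1.85) and 1.22 (1.01 to 1.43). Foxd1 was the only member at least 2-fold higher in the Snhg11-led cluster in both libraries, 1 of 9 beside 14.2% of all genes. Summed, the 9 genes were at 1736 CPM (1580 to 1903) in the Mfap4-led and 2614 CPM (2308 to 2949) in the Snhg11-led cluster of Sham. In TBI the sums were 1701 CPM (1639 to 1765) and 2856 CPM (2722 to 2994). Foxp2, which was among the genes that lead the Snhg11-led cluster, was at 377 and 743 CPM in Sham and at 304 and 910 CPM in TBI, a fold of 1.97 and 2.99.

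Of the other members some moved less and some were not resolved. Zic1 was higher in the Snhg11-led cluster by 0.67 in Sham and 0.60 in TBI on the log2 scale, and Prrx1 by 0.63 and 0.40. Foxc1 lay the other way, at -0.45 with a Sham interval that held 0 and at -0.41 in TBI. Twist1 was at -1.56 (-7.51 to 0.70) in Sham, from 11 and 1 UMIs, and at -0.38 (-1.25 to 0.36) in TBI. Tbx15 was at -0.67 (-3.28 to 1.00) in Sham and at 0.73 (0.16 to 1.28) in TBI. The intervals of Foxc2 and Tbx18 held 0 in both libraries. None of the 9 was at least 2-fold lower in both libraries, where 9.48% of all genes were. The matrix gene Dcn, encoding decorin, was lower by -2.41 and -1.83, and Mgp by -2.76 and -2.28.

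The Snhg11-led cluster also differed in measures of library content. Its median depth was 1669 UMIs in Sham and 1682.5 in TBI, against 3535.5 and 3018 in the Mfap4-led cluster. Mitochondrial UMIs made up 9.57% and 9.62% there, against 4.22% and 5.60%. The nuclear RNA Malat1 was higher by 1.98 and 2.04 on the log2 scale. The part of these measures in the differences of Foxd1, Foxp2 and the summed level was not tested. Within each cluster every TBI over Sham interval of the 9 genes held 0, including Foxp2 at -0.32 (-0.62 to 0.02) in the Mfap4-led and 0.29 (-0.06 to 0.66) in the Snhg11-led cluster.

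**Figure D4:**
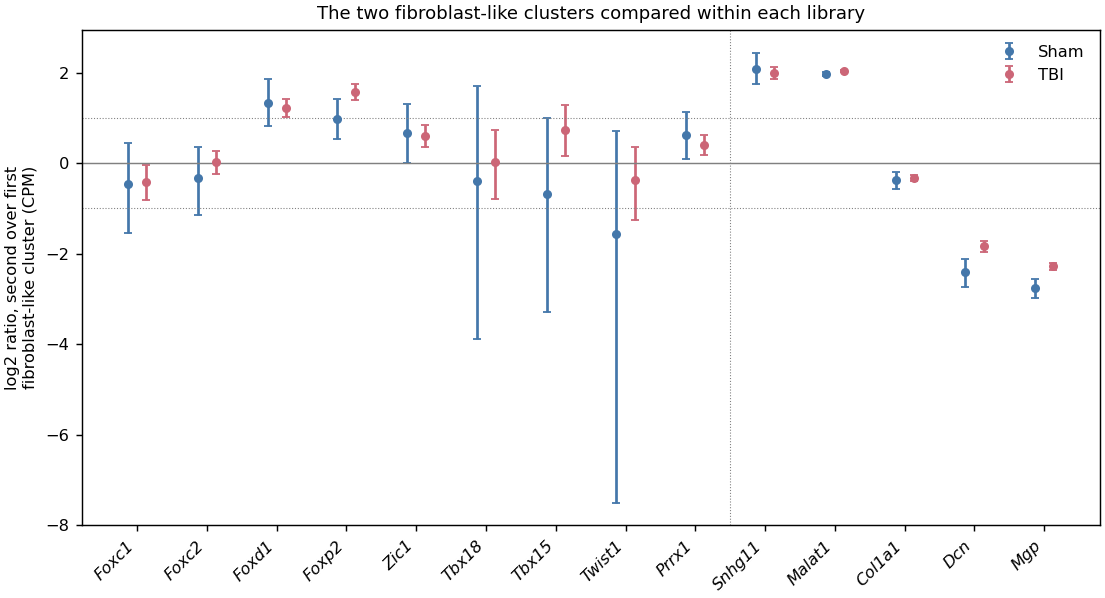
Log2 ratio (CPM) of the Snhg11-led cluster, called the second, over the Mfap4-led cluster, called the first, in Sham (blue) and TBI (red) for the 9 genes and, right of the dotted line, 5 other genes, with 95% counting intervals as bars. Foxd1 lies at 1.33 and 1.22 and Foxp2 at 0.98 and 1.58, while Dcn and Mgp lie below -1.

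At a finer division the fibroblast-like cells of both libraries fell into 12 subclusters, each called here by its leading genes. Over the 11 subclusters with at least 50000 UMIs, the highest level of Prrx1 was 9.27-fold the lowest, that of Foxp2 8.51-fold and that of Foxc2 6.15-fold. Foxd1 varied 4.75-fold, Foxc1 3.22-fold and Zic1 2.55-fold. These are ranges over groups made from the same cells and carry no test.

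Foxp2 and Foxd1 were high in the same subclusters. In the 110 cells led by Dcc, Nr4a2 and Plagl1, Foxp2 reached 1084 CPM (958 to 1221), its highest level, with Foxd1 at 544 CPM. The 66 cells led by Pappa, Col6a5 and Adam12 had Foxp2 at 804 CPM, Foxd1 at 624 CPM and Prrx1 at 574 CPM. Prrx1 was highest, at 737 CPM (606 to 888), in the 118 cells led by Gm26917, Enah and Nav2, which also had the highest Foxd1 (657 CPM). That subcluster carried 12.1% of its UMIs from Malat1 and 10.6% from mitochondrial genes. The Dcc-led cells carried 7.98% and 10.1%, and the Pappa-led cells 7.22% and 8.57%. The Snhg11-led cluster gave 115 of the 118 Gm26917-led, 104 of the 110 Dcc-led and 48 of the 66 Pappa-led cells. The part of these measures in the high levels was not tested.

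Foxc2 peaked elsewhere, while Zic1 peaked in the same cells as Foxp2. Foxc2 was highest in the 116 cells led by Penk, Ccn3 and Hs3st1, at 468 CPM (413 to 529), where Prrx1 was at 261 CPM. Zic1 was highest in the Dcc-led cells, at 407 CPM (331 to 494), and was low in the 63 cells led by Pi16, Scn7a and Dpep1, at 160 CPM. The Pi16-led cells, whose first gene marks fibroblasts around vessels and in many other tissues, had Prrx1 at 457 CPM and Foxc2 at 123 CPM.

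The 28 cells led by Nnat held genes of the arachnoid, with Ptgds, which makes prostaglandin D2, at 126420 CPM, Cldn11, a tight-junction gene of the arachnoid barrier, at 2465 CPM and Wnt6 at 286 CPM. Foxc1 was at its highest level of the 11 there, 223 CPM (122 to 374), and Zic1 was at 318 CPM. Prrx1 was at its lowest, 79.5 CPM (25.8 to 186), as was Foxp2 at 127 CPM (54.9 to 251). No Tbx15 UMI was counted, which leaves room for up to 58.7 CPM. The intervals of Prrx1 and Foxp2 lay below their levels in all fibroblast-like cells, while those of Foxc1 and Zic1 held theirs.

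The subclusters also held cells with genes of other lineages. In 23 cells led by Lyz2 and C1qc, both genes of macrophages, Ptprc of immune cells was at 270 CPM and Foxc1, Foxc2 and Foxd1 were at their lowest levels among the 11 subclusters, 69.2, 76.1 and 138 CPM. The 17 cells led by Spp1 and Bglap, genes of bone, had 14 Prrx1 UMIs (342 CPM) and 0 to 2 UMIs of each other member.

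**Figure D5:**
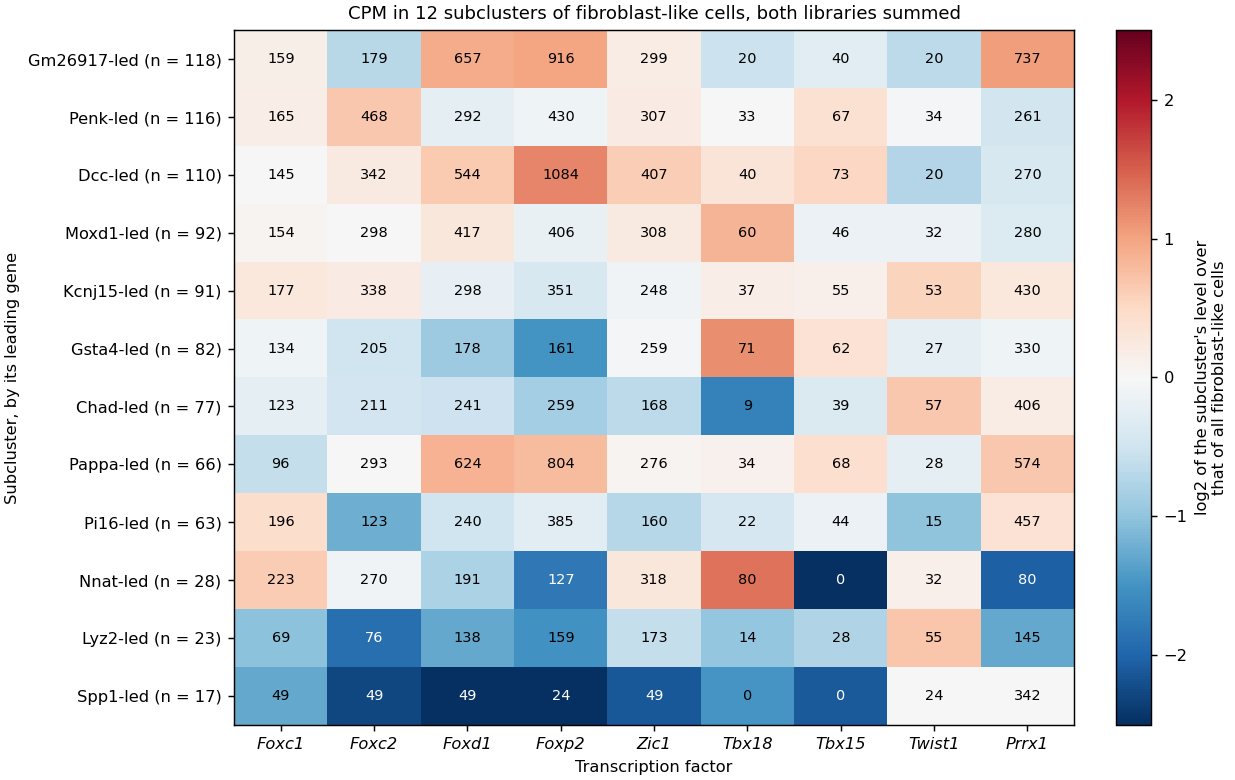
Level of each gene (CPM, printed in each field) in the 12 subclusters of fibroblast-like cells, both libraries summed, with the color giving the log2 ratio to all fibroblast-like cells. Foxp2 is highest in the Dcc-led cells (1084 CPM), Prrx1 in the Gm26917-led cells (737 CPM) and Foxc1 in the Nnat-led cells (223 CPM).

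The 9 genes were set beside 58 other transcription factors of mesenchyme. Of the 50 with at least 20 UMIs, 32 were at least 4-fold higher in fibroblast-like cells in both libraries, where 12.1% of all genes were. The 20 UMIs were counted over all cells, so that a factor could enter through its fibroblast-like UMIs alone. Foxl1, counted among the 32, had 6 Sham and 40 TBI fibroblast-like UMIs of 47 in all cells. Zic4 was 141-fold and 39.1-fold higher in fibroblast-like cells, and Prrx2, the relative of Prrx1, 282-fold and 99.5-fold. Twist2, the relative of Twist1, was 120-fold and 46.5-fold higher. Prrx2 had 20 Sham and 163 TBI UMIs in fibroblast-like cells of 192 in all cells, and Twist2 14 and 67 of 90. The folds of both thus rest on few UMIs in other cells. The limit was set against all other cells together, and some of the 32 were higher in mural-like cells. Over both libraries Heyl was at 317 CPM there, against 26.6 and 34.2 CPM in the Mfap4-led and Snhg11-led clusters. Nr2f1 was at 438 against 104 and 174 CPM, and Nr2f2 at 496 against 117 and 222 CPM. Other factors were abundant in fibroblast-like cells but less than 4-fold above the other cells, Foxp1 at 484 and 443 CPM with folds of 2.02 and 2.32, and Ebf1 of B cells and stroma at 495 and 422 CPM with folds of 1.16 and 1.51.

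Between TBI and Sham, 0 of the 40 other factors that could be compared were 2-fold higher and 1 was 2-fold lower, beside 4.91% and 3.32% of all genes. That factor was Meox2, at -1.46 (-2.60 to -0.10), from 9 Sham and 21 TBI UMIs. Over both libraries Meox2 was at 184 CPM in mural-like and 43.3 CPM in endothelial-like cells. In the Mfap4-led and Snhg11-led clusters it was at 12.0 and 9.97 CPM. The part of RNA from other cells in its ratio was not tested. The median over the 40 was -0.04. Prrx2 had a log2 ratio of 0.36 (-0.28 to 1.14).

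Genes of the 3 meningeal layers were counted in the same way. Of 6 dural genes 5 were at least 4-fold higher in fibroblast-like cells in both libraries, beside 12.1% of all genes. Of 7 arachnoid genes 5 were, and of the 4 pial genes measured 0. Mgp, among the 5 dural genes, was at 9818 CPM in mural-like cells over both libraries. In fibroblast-like cells it was at 9825 CPM in Sham and 9171 CPM in TBI. The arachnoid gene Slc47a1 was also a marker used to name the class, so that its fold was not independent of the naming. Wnt6 of the arachnoid list was 2-fold higher in TBI, at 1.02 (-0.66 to 4.43), from 2 and 31 UMIs. Among 16 genes listed as possible partners of the 9 factors, 8 were at least 4-fold higher in fibroblast-like cells (12.1% of all genes). They included Pdgfrb, a growth factor receptor of fibroblasts and pericytes (22.5-fold in Sham and 10.9-fold in TBI). These folds were over all other cells together. In mural-like cells Pdgfrb was at 2097 CPM over both libraries, against 271 and 380 CPM in the Mfap4-led and Snhg11-led clusters. Bmp4, a signal of meningeal and skull mesenchyme, had 20 and 113 UMIs in fibroblast-like cells of Sham and TBI. Pdgfra, counted among the 8, was also a marker used to name the class, and Aldh1a2 was counted in the arachnoid list too. Of the 16 genes, 15 could be compared between the libraries. Of these 3 were 2-fold lower in TBI and 0 higher, beside 3.32% and 4.91% of all genes. They were Postn, which encodes the matrix protein periostin, at -2.69 (-3.25 to -2.13) from 57 Sham and 55 TBI UMIs, Rdh10 of retinoic acid synthesis at -1.26 (-2.51 to 0.30), and Sox18 of endothelium at -1.14 (-2.58 to 0.76). The intervals of Rdh10 and Sox18 held 0. Over both libraries Postn was at 426 CPM in mural-like and 250 CPM in Schwann-like cells. In the Mfap4-led and Snhg11-led clusters it was at 51.5 and 18.5 CPM. Mural markers in the fibroblast-like class were at 473 CPM in Sham and 132 CPM in TBI, and Schwann markers at 278 and 332 CPM. The part of RNA from such cells in the ratio of Postn was not tested.

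Neighbouring forkhead genes were read beside Foxc1 and Foxc2. Foxf2 and Foxq1 lie on the same strand of chromosome 13, and had 1 and 0 UMIs in Sham and 6 and 2 UMIs in TBI fibroblast-like cells. Both were found in endothelial-like cells, at 32.0 and 49.5 CPM over both libraries, the class where Foxc1 stood at 59.3 CPM. Near Foxc2 on chromosome 8, Foxl1 had 6 UMIs in Sham and 40 in TBI fibroblast-like cells. All filtered cells of both libraries together held 47 Foxl1 UMIs, so that too few lay in other cells for a measured fold. Foxf1 had no UMI in fibroblast-like cells of either library. Foxf2 and Foxq1, at 175.2 and 245.7 kb from Foxc1, were thus found in the same endothelial class but had few UMIs in fibroblast-like cells. Whether they lay in the Vwf-led cluster was not tested. Of the neighbours of Foxc2, Foxl1 at 9.0 kb shared its main cell class and Foxf1 at 28.0 kb did not.

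Genes with the most similar profile were sought over 38 points, each a whole cell class of 1 library. These points share libraries and depth, and r is given as a description. Foxc1 was closest to Fbxl7 (r = 0.91) and to Ccn2 and Col5a2 (both r = 0.91), genes found in fibroblasts and vessels. Zic1 was closest to Zic4 (r = 0.86). Foxd1 was closest to Mpzl2 (r = 0.91), Foxp2 to Scarf2 (r = 0.88) and Foxc2 to Olfr1033 (r = 0.90). Tbx15 was closest to Nfatc4 (r = 0.94) and Ednra (r = 0.92), the endothelin receptor of smooth muscle, Tbx18 to C1s1 (r = 0.93) and Aspn (r = 0.93), Twist1 to Fbln7 (r = 0.89), and Prrx1 to Cyp1b1 and Aspn (both r = 0.89).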

How the data were processed

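Living cells of dorsal meninges were measured in 2 droplet 3′ libraries, 1 per group. The authors deposited matrices of UMI counts per gene and barcode, made with Cell Ranger on mm10 (version 2.1.1 per the labels, 3.1.0 per the matrix header). Barcodes with 150 to 5000 genes, at most 20% mitochondrial and 5% hemoglobin UMIs were kept, following the published limits, leaving medians of 2764 (Sham) and 2663 (TBI) UMIs per cell from deposited totals of 9527334 and 15011079. Cells were clustered on 2000 variable genes without the 9 genes (scanpy 1.11.5, Leiden resolution 0.8) and took the name of a class with 3 or more markers in their top 50 genes. Clusters left without a name were then named from the markers detected, a step added after the data were seen. Doublets, kept except in an alternative, were taken as the expected number of highest scores (33 and 114 cells), a change made after an automatic threshold marked 2 and 3.

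UMIs were summed by class and library. CPM had exact Poisson intervals, and ratios, with 0.5 added to each sum, exact binomial intervals. Shares of cells had exact Clopper-Pearson intervals. The authors' differential expression, with cells as replicates, was not used. The scripts were tested on simulated data. By rule the text names all 9 genes, genes of the lists, the leading genes of subclusters and the 3 most similar profiles. The genes and lists were chosen with earlier results of these data known. Alternatives were other cell gates, clusterings, filters, scalings, thinning and doublet removal. Values of some genes that the rule would name are not reported here.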

Additional observations from a re-analysis of the deposited data

Results flagged for a closer look

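The barcodes left out by the filters, 656 in Sham and 576 in TBI, take no part in the comparisons above. They were looked at because they held UMIs of the 9 genes at a higher level in TBI than in Sham. All 9 genes together were at 229.8 CPM in the TBI and 40.9 CPM in the Sham barcodes left out. Foxd1 was at 53.25 CPM in TBI and 7.23 CPM in Sham, Foxp2 at 44.85 and 13.8 CPM, and Prrx1 at 42.98 and 6.02 CPM. Zic1 was at 35.5 and 5.42 CPM, Foxc2 at 28.96 and 1.81 CPM, and Foxc1 at 14.95 and 3.01 CPM. The summed TBI level lies between those of all other cells and of fibroblast-like cells that passed the filters, and which cells gave these UMIs was not tested.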

How the results depend on the processing

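All 9 genes stayed at least 4-fold higher in fibroblast-like cells in both libraries under every alternative run for that count. The number of genes 2-fold higher in TBI, 516, was 964 when levels were means over cells, 1120 without a filter on low counts and 201 with a minimum of 50 UMIs. The number 2-fold lower, 349, was 591, 3270 and 103 under the same settings. The median log2 ratio of the 9 genes, 0.12, was -0.12 with cells taken by their own markers and -0.0398 in the Mfap4-led cluster alone, a choice made after seeing the data. The share of cells with any of the 9 genes was 74.7% in Sham and 84.4% in TBI after thinning to 1000 UMIs, and 62.8% and 69.6% when 2 UMIs were asked for. In TBI it was 88.5% with cells taken by their own markers. The cause of these shifts was not tested. Across 13 settings each, the log2 ratio of Foxp2 ran from -0.32 to 0.29, of Foxd1 from -0.20 to 0.15, of Prrx1 from -0.27 to 0.30, of Foxc1 from -0.22 to 0.08, of Foxc2 from 0.17 to 0.53 and of Zic1 from 0.03 to 0.22. Those of Tbx15 (-0.28 to 1.13), Tbx18 (-0.66 to 1.31) and Twist1 (-0.13 to 1.05) were wider. No paired analysis was possible because each group is 1 library. The low UMI numbers of Tbx15, Tbx18 and Twist1 in Sham limit what can be said of them, and no replicate of either group was measured.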

Other observations

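In the fibroblast-like cells thinned to 1000 UMIs, Prrx1 was found in a smaller share of cells with a Foxc2 UMI than of cells without. Prrx1 was found in 19.5% (14.0% to 25.9%) of the 185 cells with a Foxc2 UMI and in 30.7% (26.9% to 34.7%) of the 567 cells without. In TBI the shares were 20.8% of 168 and 30.8% of 497 cells, and in Sham 5.88% of 17 and 30.0% of 70. Among the 36 pairs of the 9 genes it was the only pair whose intervals did not overlap over both libraries. The pair was picked from the 36 after the values were seen, the cells come from 2 libraries and are not replicates, and no test is given.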
